A study of Mus musculus with 8 samples.

Results

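Voltage-gated ion channels are membrane pores that open with a change in the voltage across the cell membrane. The calcium and sodium families depolarize the cell, and calcium entry through the first triggers the release of hormone and transmitter vesicles. Potassium channels return the membrane to rest and set its resting potential, and in the stomach potassium channels of the apical membrane also recycle the potassium that the gastric proton pump of parietal cells exchanges for acid. Members were chosen by symbol, with earlier results of these data known. They were every gene of the deposited RNA sequencing table whose symbol begins with Cacna, Cacnb, Cacng or Kcn. Symbols that begin with Scn, a number and a or b were also taken, and Kcne2 and Kcnq1 were left out. This rule took 133 of 23361 genes, 26 of the calcium channel family, 14 of the sodium channel family and 93 of the potassium channel family. The potassium symbols also cover inward rectifiers, two-pore leak channels and channels gated by calcium or sodium, which are not opened by voltage in the strict sense, and the alpha2delta, beta and gamma genes encode accessory subunits and not pores.

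The study compared 5 cancers of the gastric squamous-columnar junction (SCJ), the border between the squamous forestomach and the glandular stomach, with the SCJ of 3 control stomachs. The cancers (genotype Trp53-/-Rb1-/-) came from mice that carried the Lgr5-eGFP-IRES-CreERT2 knock-in allele, Trp53 loxP/loxP, Rb1 loxP/loxP and the Ai9 tdTomato reporter, in which tamoxifen given at 6 to 10 weeks of age removed Trp53 and Rb1 from cells that express Lgr5. Tumors were dissected along their tdTomato border at least 250 days after induction. Controls were wild type age-paired mice, and whether they carried the Lgr5 allele or the reporter or received tamoxifen is not given in the sources used here, so that effects of these and of the tumor cannot be told apart. The labels number the samples within each group but do not name the mice, so the p-values below measure the spread between these samples. Tissue was sequenced in bulk, and fewer cells of a type and less RNA per cell cannot be told apart in any value below.

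Levels are given as FPKM (mapped fragments of a gene corrected for transcript length and library size), which the authors deposited as whole numbers, and per-library values are listed in the order cancer 1 to 5 and control 1 to 3. FPKM summed to between 403569 and 573858 in the cancers and between 887141 and 992550 in the controls. Differences are those in mean log2(FPKM + 1), cancer minus control, with the standard error (SE) and the Benjamini-Hochberg adjusted p of limma over all 14357 genes tested. With a pseudocount of 1 they understate the change of low genes, and for a gene listed at 0 in every control the difference depends on that pseudocount and is no fold change. Where an exact p is given, it comes from an exact permutation of the sample labels (two-sided, 56 arrangements), for which 0.018 is the smallest p. Rb1, one of the deleted genes, was at 4, 4, 5, 6 and 4 FPKM in the cancers against 9, 9 and 10 in the controls (difference -0.90, SE 0.16, adjusted p = 0.0059), and Trp53 did not pass (difference -0.08, adjusted p = 0.87). The library sums themselves differed between the groups. After rescaling every library to the same sum (TPM) the median difference of all genes rose from -0.04 to 0.81, the Rb1 difference was -0.05 and the Trp53 difference 0.86 (adjusted p = 0.020).

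Marker genes showed what else the samples held. All 7 neuroendocrine markers, among them Chga, Chgb, Syp, Insm1, Scg2 and Scg3, were higher in the cancers, with summed FPKM of 8022 to 17807 against 125 to 188. Of 8 enteric neuron markers, Elavl4 and Uchl1 were higher (sum 77 to 137 against 8 to 13), while Chat, which makes acetylcholine, was at 0 in all 8 libraries, as was Sox10 of enteric glia (glia sum 0 to 5 against 0 to 1). The 6 smooth muscle markers summed to 43 to 1692 in the cancers, the highest in cancer 2, and to 355 to 549 in the controls, with exact permutation p of 0.39 to 0.70 for the single genes. The 4 parietal cell markers summed to 0 to 2151 in the cancers and 3984 to 7359 in the controls, with 2 of 4 lower, and the 4 squamous markers to 0 to 1567 and 1526 to 2561, with 1 of 4 lower. That gene, Krt4 (adjusted p = 0.044), passed in 2 of 8 fits that left out a library and neither with TPM (adjusted p = 0.056) nor with quantile normalization (adjusted p = 0.054). Endothelial markers were higher for 2 of 4 genes (12 to 42 against 5 to 9), Pecam1 and Cdh5, in 6 and 5 of those 8 fits. The interstitial cell of Cajal list was higher for 2 of 3 (71 to 143 against 33 to 45), Etv1 in all 8 fits and Kit (adjusted p = 0.044) in 2. Etv1 alone was at 27 to 115 FPKM against 1. The third gene, Ano1, had the opposite sign, at 1, 28, 2, 9 and 13 FPKM against 25, 25 and 31. It did not pass (difference -1.89, adjusted p = 0.11). Lymphocyte markers summed to 57 in cancer 1, to at most 7 elsewhere among the cancers and to 2 to 3 in the controls, and the striated muscle list to 1 to 13 and 5 to 7. Of the adrenal medulla list Th reached 9 in cancer 1, and Dbh and Pnmt were at 0 throughout. Among the epithelial markers Epcam was higher and Cdh1 and Krt8 were lower (sum 712 to 2812 against 3157 to 4577), Krt8 with an adjusted p of 0.045, in 2 of 8 fits that left out a library and not with TPM (adjusted p = 0.11).

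Of the 133 channel genes, 45 were listed at 0 in all 8 libraries and 88 were above 0 in at least 1 library, as were 66.9% of all genes in the table. A level of at least 1 FPKM in at least 3 libraries, the condition for testing, was reached by 69 channel genes and by 61.5% of all genes, and 19 genes were above 0 without reaching it, 18 of them never above 1 FPKM. Among the 69 tested, 30 were higher in the cancers, 11 were lower and 28 did not pass the threshold, with differences from -1.50 (Kcnn4) to 2.90 (Kcne3) and 14 of the 28 never above 2 FPKM. The background for all genes tested was 16.2% higher and 18.3% lower (34.5% in either direction), where the channel genes had 43.5% and 15.9%. Every cancer was above every control for 28 channel genes and below every control for 10, with 14.4% and 19.8% of all genes tested. Because a gene with no control value can pass the filter only through the cancers, these genes were counted apart. They made up 30 of the 69 tested channel genes and 7.54% of all genes tested, and 18 of the 30 were higher. Of the other 39, which had a control value above 0, 12 were higher and 11 were lower. Calls over all genes were not counted apart by control value. The counts split in this way, here and below, therefore have no background share to be read against. The median difference of the tested channel genes was 1.03, and 0.005 without those at 0 in all controls, beside -0.04 for all genes tested.

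**Figure D1:**
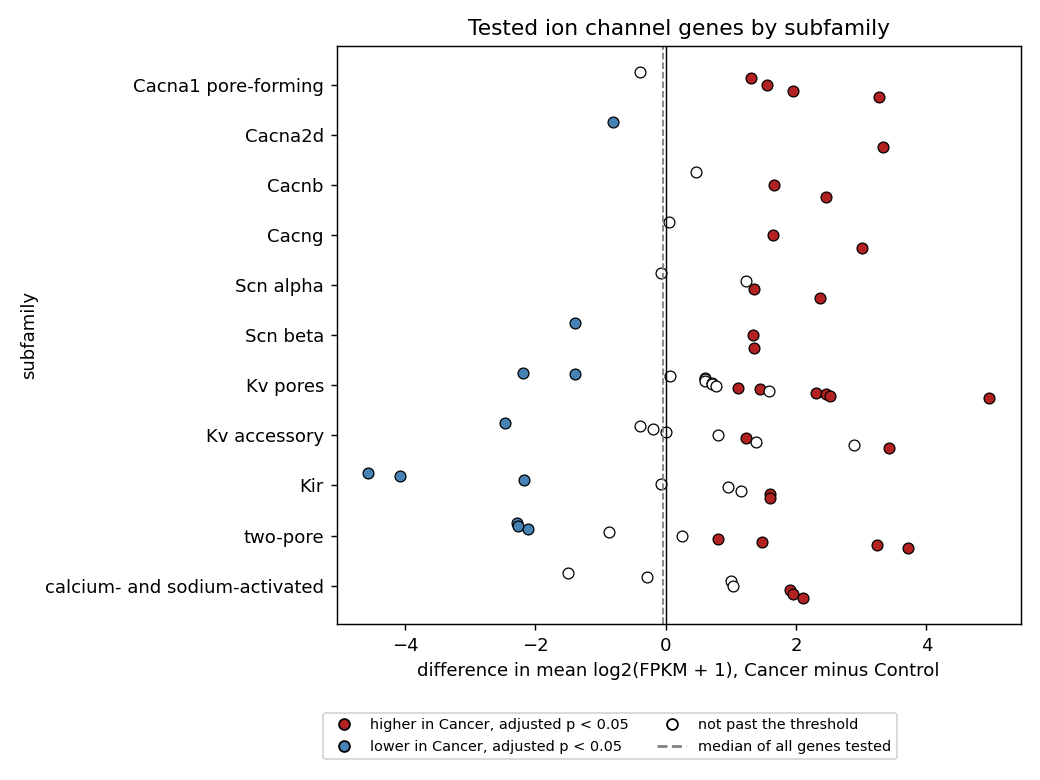
Difference in mean log2(FPKM + 1), cancer minus control, of each of the 69 tested ion channel genes (points) by subfamily. Filled points passed an adjusted p of 0.05 (red, 30 higher; blue, 11 lower), and the dashed line is the median of all genes tested (-0.04). Calcium channel genes lie mostly to the right, whereas inward rectifier (Kir) and two-pore potassium genes lie on both sides.

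Of the 26 calcium channel genes 10 were at 0 in every library, 13 were tested, 9 were higher in the cancers, 1 was lower and 3 did not pass, where 16.2% of all genes tested were higher. Of the 9 that were higher, 6 were at 0 in every control, and 3 of the 7 tested members with a control value were higher. The summed FPKM of the family was 108, 69, 102, 58 and 112 in the cancers but only 16, 14 and 16 in the controls, so that the groups were apart, with the lowest sum in cancer 4. The median difference was 1.65, and 0.47 over the 7 members with a control value above 0.

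The 10 Cacna1 genes encode the pore, and 4 of the 5 tested were higher. Cacna1a (chromosome 8, 84338631 to 84640251, RefSeq on GRCm38.p6, to which all positions refer), the P/Q-type pore of nerve terminals and endocrine cells, was at 12, 4, 12, 6 and 13 FPKM in the cancers and at 0 in each control (difference 3.27, SE 0.37, adjusted p = 0.0014, exact p = 0.018). Cancers 2 and 4 had the lowest levels, and the groups did not overlap. Cacna1h, a T-type pore that opens near the resting potential, was at 2, 3, 3, 2 and 5 FPKM against 0 in every control (difference 1.95, SE 0.24, adjusted p = 0.0019). The L-type pore genes, whose channels are blocked by dihydropyridines, followed at lower differences. Cacna1c was at 3, 2, 2, 1 and 2 FPKM and listed at 0 in the controls (difference 1.55, SE 0.22, adjusted p = 0.0028). Cacna1d, the L-type gene known from neuroendocrine and sinoatrial cells, was the only member of this subfamily past the threshold with a level in the controls, at 7, 4, 8, 3 and 7 FPKM against 2, 1 and 2 (difference 1.31, SE 0.31, adjusted p = 0.018, and 0.070 without control 2). The N-type gene Cacna1b, at 0, 1, 0, 1 and 1 FPKM against 1 in each control, did not pass (adjusted p = 0.32).

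Accessory subunits carry the pore to the membrane and tune its gating. Cacna2d1 (chromosome 5, 15934264 to 16374511), the alpha2delta subunit bound by gabapentin, was at 19, 8, 17, 12 and 24 FPKM in the cancers against 1, 1 and 0 in the controls (difference 3.33, SE 0.38, adjusted p = 0.0015). Its lowest cancer, at 8 FPKM, was above its highest control, at 1. Cacna2d2 was at 1 FPKM in each control and in cancer 2 and at 0 in the other 4 cancers (difference -0.80, SE 0.26, adjusted p = 0.045), and with TPM it did not pass (-0.75, adjusted p = 0.14). This difference of a single FPKM step passed only narrowly. It was past the threshold in 1 of 8 fits that left out a library, the one without cancer 2, with an adjusted p of 0.070 to 0.12 in the other 7, and with TPM its adjusted p was 0.14. Cacna2d3, at 5 and 4 FPKM in cancers 4 and 5 and 0 in the other 6 libraries, was above 0 in too few libraries to be tested. Among the cytoplasmic beta subunits, Cacnb3 (chromosome 15, 98628436 to 98644536) was the calcium channel gene with the highest level in both groups, at 40, 34, 35, 18 and 36 FPKM against 9, 8 and 11 (difference 1.66, SE 0.26, adjusted p = 0.0041). It made up 36.3% of the family's summed FPKM in the cancers and 60.9% in the controls. Cacnb2 was at 5, 3, 5, 4 and 6 FPKM against 0 in every control (difference 2.46, SE 0.19, adjusted p = 0.0006). Both gamma genes that passed, Cacng4 and Cacng2, belong to the group also known to regulate AMPA-type glutamate receptors. Cacng4 was at 14, 4, 12, 3 and 8 FPKM and at 0 in the controls (difference 3.02, SE 0.45, adjusted p = 0.0035). Cacng2 was at 2, 1, 4, 1 and 4 FPKM and at 0 in the controls (difference 1.65, SE 0.36, adjusted p = 0.013, and 0.050, no longer past the threshold, without control 1). Of the 8 Cacng genes 5 were at 0 in every library.

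Sodium channel genes stayed at low levels. Of the 14 members 5 were at 0 throughout and 7 were tested, with 4 higher, 1 lower and 2 not past the threshold, where 16.2% of all genes tested were higher and 18.3% lower. Of the 4 that were higher 3 were at 0 in every control. The family summed to 22, 11, 27, 15 and 27 FPKM in the cancers, beside 4, 6 and 7 in the controls. Its median difference was 1.33, and -0.07 over the 3 members with a control value above 0.

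Alpha genes encode the pore that carries the action potential upstroke. Scn3a (chromosome 2, 65457118 to 65567591), known as the sodium channel of embryonic neurons, was at 7, 1, 7, 3 and 6 FPKM in the cancers and at 0 in every control (difference 2.36, SE 0.47, adjusted p = 0.009). Scn8a, the main sodium channel of nodes of Ranvier, was at 2, 1, 2, 1 and 2 FPKM against 0 (difference 1.35, SE 0.20, adjusted p = 0.0033). Scn2a1, which lies 53.2 kb from Scn3a, was likewise lowest in cancers 2 and 4, at 2, 0, 3, 1 and 2 FPKM against 0 in the controls, and did not pass (difference 1.23, SE 0.42, adjusted p = 0.054, and 0.0047 without cancer 2). It passed with TPM (1.90, adjusted p = 0.033), with a pseudocount of 0.1 (adjusted p = 0.047) and with array weights (adjusted p = 0.0029). Of the 3 tested beta subunit genes, single-span proteins that also act in cell adhesion, 2 were higher and 1 was lower. Scn3b had the same rounded values as Scn8a in all 8 libraries and so the same difference. Scn4b (chromosome 9, 45138624 to 45154155) was at 0 in every cancer and at 1, 2 and 2 FPKM in the controls (difference -1.39, SE 0.16, adjusted p = 0.0016), the only member of this family that was lower. Without any 1 control it no longer reached the level for testing. The 2 sodium channel genes above 0 in too few libraries to be tested were never above 1 FPKM.

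**Figure D2:**
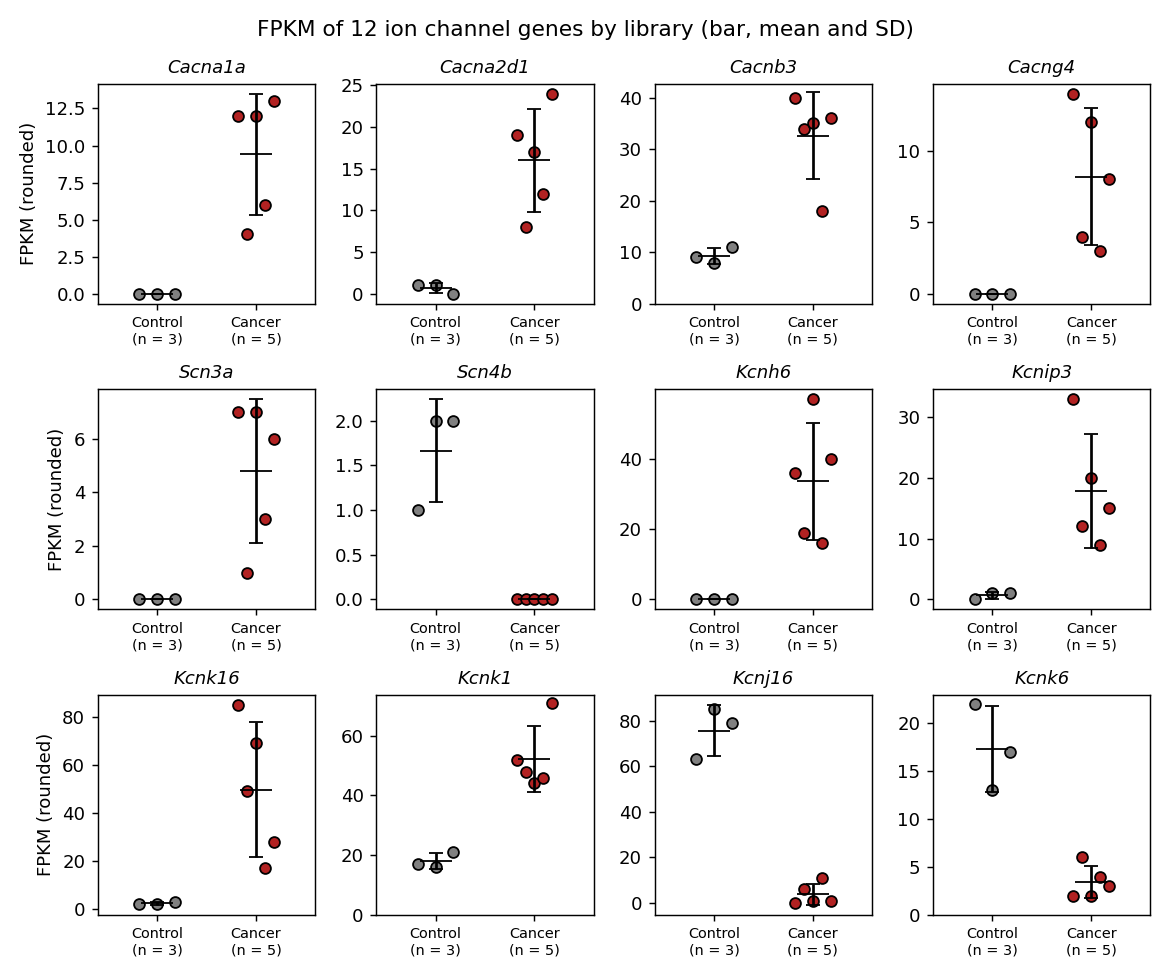
FPKM of 12 channel genes in each library (points), with the mean and SD (bars) of the 5 cancers and 3 controls; each panel has its own linear axis. Kcnh6 reached 16 to 57 FPKM in the cancers and 0 in the controls, and Kcnj16 0 to 11 FPKM in the cancers against 63 to 85 in the controls. None of the 12 genes overlaps between the groups.

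Potassium channel genes passed in both directions. Of the 93 members 30 were at 0 in every library, 49 were tested, 17 were higher, 9 were lower and 23 did not pass. The share that was higher was 34.7%, against 16.2% of all genes tested, and the share that was lower, 18.4%, was at the 18.3% of all genes. This contrast depended on the scaling. With TPM 23 of the 49 were higher and 8 were lower, where 50% of all genes tested were higher and 3.68% lower. Of the 17 that were higher 9 were at 0 in every control, and 8 of the 29 tested members with a control value were higher. The family's summed FPKM overlapped between the groups, at 348, 388, 344, 253 and 326 in the cancers against 319, 325 and 360 in the controls. With TPM it did not, at 452 to 862 against 334 to 366. The pore genes of voltage-gated (Kv) channels summed to 86, 47, 98, 36 and 98 FPKM in the cancers against 11, 10 and 10 in the controls. Inward rectifier genes went the other way, with 14, 42, 21, 55 and 37 FPKM against 178, 218 and 219, and the sums of neither subfamily overlapped between the groups, with TPM as well. The leading gene was Kcnk1 in the cancers, with 15.7% of the family's summed FPKM, and Kcnj15 in the controls, with 35.4%. The median difference of the family was 0.80, and -0.07 over the 29 members with a control value above 0.

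Of 39 Kv pore genes 16 were tested, 6 were higher and 2 were lower. Kcnh6 (chromosome 11, 106008044 to 106035595), a member of the ether-a-go-go related (ERG) channels that repolarize slowly firing cells, had the largest difference of all 133 genes. It was at 36, 19, 57, 16 and 40 FPKM in the cancers and at 0 in every control (difference 4.97, SE 0.40, adjusted p = 0.00064, exact p = 0.018), and held 46.0% of the subfamily's summed FPKM in the cancers. Its relative Kcnh2, the ERG gene of the heart, was at 20, 11, 16, 7 and 17 FPKM against 1, 2 and 2 (difference 2.46, SE 0.33, adjusted p = 0.0027). For both ERG genes cancers 2 and 4 were the lowest, as they were for Cacna1a. Kcnc1, a fast Kv gene, was also higher, at 1, 1, 1, 1 and 2 FPKM and at 0 in the controls (difference 1.12, SE 0.17, adjusted p = 0.0038), and with quantile normalization it did not pass (0.57, adjusted p = 0.068). Both genes that were lower encode silent subunits, which form no channel alone and modify other Kv pores. Kcnf1 was at 0, 1, 0, 1 and 0 FPKM in the cancers against 8, 3 and 5 in the controls (difference -2.18, SE 0.38, adjusted p = 0.0056), and Kcng4 was at 0 in every cancer and at 1, 2 and 2 FPKM in the controls (difference -1.39, SE 0.16, adjusted p = 0.0016), too few libraries to be tested without any 1 control.

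Accessory Kv genes included the member with the widest spread among the cancers. Kcne3, a single-span subunit that holds potassium channels of gut epithelium open, was at 2, 96, 10, 29 and 14 FPKM in the cancers against 1, 2 and 1 in the controls. Cancer 1 overlapped the controls and cancer 2 was far above the rest, and the difference of 2.90 (SE 0.98) did not pass (adjusted p = 0.054, and 0.017 without cancer 1). With TPM it did (3.81, adjusted p = 0.0082). Kcnip3, a calcium-binding protein of Kv4 channels that also acts as the transcriptional repressor DREAM, was at 33, 12, 20, 9 and 15 FPKM against 0, 1 and 1 (difference 3.43, SE 0.43, adjusted p = 0.002). Kcne4, a subunit that dampens Kv currents, was at 2, 2, 1, 1 and 1 FPKM and at 0 in the controls (difference 1.23, SE 0.20, adjusted p = 0.0043), and with quantile normalization it did not pass (0.61, adjusted p = 0.090). Kcne1, the subunit that slows the delayed rectifier of heart and inner ear, was lower, at 0, 1, 0, 5 and 0 FPKM against 8, 6 and 11 (difference -2.47, SE 0.62, adjusted p = 0.020). Without control 1, 2 or 3 the adjusted p of Kcne1 was 0.069, 0.051 or 0.076.

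Inward rectifiers pass potassium into the cell more easily than out of it, and 3 of 8 tested members were lower and 2 higher. Kcnj15 (chromosome 16, 95257558 to 95300260), a rectifier of epithelia, was at 106, 121 and 128 FPKM in the controls, the highest of any channel gene there, and at 0, 15, 3, 30 and 8 in the cancers. The groups did not overlap, with a difference of -4.07 (SE 1.01, adjusted p = 0.020), and the adjusted p was 0.065, 0.064 or 0.067 without control 1, 2 or 3. Kcnj16 (chromosome 11, 110968033 to 111027968) forms pH-sensitive channels together with such rectifiers, and was at 63, 85 and 79 FPKM in the controls against 0, 6, 1, 11 and 1 in the cancers (difference -4.57, SE 0.78, adjusted p = 0.0055). This was the largest fall of any member, and it stayed past the threshold in each of the 8 fits that left out a library. Kcnj13, which sets the potassium conductance of transporting epithelia, was at 4, 6 and 5 FPKM in the controls and 0, 1, 0, 1 and 0 in the cancers (difference -2.17, SE 0.32, adjusted p = 0.0033). Exons of Gigyf2 on the opposite strand cover 49.1% of the exon bases of Kcnj13, and since the strand setting of the authors' counting is not given in the sources used here, reads of both genes may not be separated.

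Kcnj15 and Kcnj16 were highest in the same cancers as the parietal cell markers. Atp4a, the catalytic subunit of the gastric proton pump, was at 0, 370, 66, 810 and 67 FPKM in the cancers against 1643, 3437 and 3572 in the controls (difference -5.34, adjusted p = 0.068). Atp4b, its other subunit, was at 0, 603, 106, 1336 and 41 FPKM against 2328, 3906 and 3584 (difference -5.29, adjusted p = 0.088). Kcnj15, Kcnj16 and both pump genes were at 0 in cancer 1, highest among the cancers in cancer 4 and next in cancer 2. Slc26a7 (0 to 1 FPKM against 7 to 11) and Aqp4 (0 to 4 against 4 to 5) of the same list were lower. Aqp4 overlapped between the groups (adjusted p = 0.044, exact p = 0.071), passed in 1 of 8 fits that left out a library and did not pass with TPM (adjusted p = 0.12). Genes outside the parietal list were also lowest in cancer 1 and highest in cancers 2 and 4. Among them were Krt8 (207, 1681, 372, 960 and 557 FPKM), Krt18 (139, 643, 224, 482 and 331) and Kcnn4 (2, 37, 4, 18 and 11). Of the other epithelial markers, Cdh1 was highest in cancers 2 and 5 and Epcam in cancer 5. The squamous markers summed to 0 in cancer 1, 16 in cancer 2 and 1567 in cancer 4. The part of parietal or other epithelial cells in the fall of Kcnj15 and Kcnj16 was not tested.

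**Figure D3:**
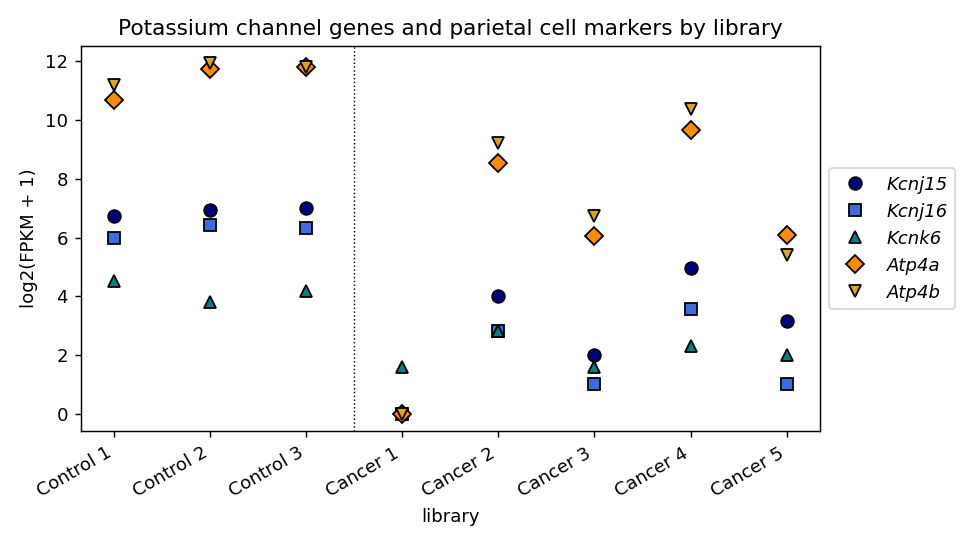
Level, as log2(FPKM + 1), of 3 potassium channel genes and 2 parietal cell markers (symbols) in each of the 3 control and 5 cancer libraries. Among the cancers, Kcnj15, Kcnj16, Atp4a and Atp4b are at 0 in cancer 1 and highest in cancer 4, while Kcnk6 stays between 2 and 6 FPKM.

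The 2 inward rectifier genes that were higher serve other channel types. Kcnj6, a pore opened by G protein-coupled receptors in neurons and endocrine cells, was at 3, 1, 3, 1 and 3 FPKM and at 0 in every control (difference 1.60, SE 0.31, adjusted p = 0.008). Kcnj8, an ATP-sensitive pore of vascular smooth muscle and pericytes, was at 3, 11, 3, 5 and 13 FPKM against 1, 2 and 1 (difference 1.60, SE 0.48, adjusted p = 0.037). It passed in 2 of 8 fits that left out a library, those without cancers 1 and 3, with an adjusted p of 0.054 to 0.12 in the other 6. With quantile normalization the adjusted p of Kcnj8 was 0.082. Cancers 5 and 2 were the highest for Kcnj8. Smooth muscle markers summed to 1692 in cancer 2 and 72 in cancer 5, against 355 to 549 in the controls, and endothelial markers to 21 and 12, against 5 to 9. Their part in the Kcnj8 difference was not tested. The ATP-sensitive pore of insulin-secreting cells, Kcnj11, did not pass at 4, 5, 4, 1 and 2 FPKM against 1 in each control (difference 0.96, adjusted p = 0.070), nor did the gene of its sulfonylurea receptor, Abcc8, at 27, 33, 22, 3 and 4 against 3, 1 and 1 (difference 2.41, adjusted p = 0.051). With TPM both passed (1.76, adjusted p = 0.013, and 3.34, adjusted p = 0.011). Cancers 4 and 5 were the lowest for both.

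Two-pore channels carry the leak current that holds the resting potential. Of 14 members 9 were tested, 4 were higher and 3 were lower, and the subfamily summed to 177, 130, 151, 87 and 124 FPKM in the cancers against 86, 57 and 80 in the controls. Kcnk16 (chromosome 14, 20261375 to 20269269), a channel opened at alkaline pH and known from the endocrine pancreas, was at 85, 49, 69, 17 and 28 FPKM in the cancers against 2, 2 and 3 in the controls (difference 3.72, SE 0.50, adjusted p = 0.0027). Kcnk2, opened by membrane stretch and lipids, was at 16, 7, 22, 5 and 3 FPKM and at 0 in the controls (difference 3.24, SE 0.56, adjusted p = 0.0057). Both were lower in cancers 4 and 5 than in cancers 1 to 3. Kcnk1 (chromosome 8, 125993655 to 126030685), a widely expressed leak channel, had the most even rise, at 52, 48, 44, 46 and 71 FPKM against 17, 16 and 21 (difference 1.47, SE 0.18, adjusted p = 0.002). Kcnk12, at 1 FPKM in 4 cancers and 0 in cancer 4 and every control, passed narrowly (difference 0.80, adjusted p = 0.045), and in 1 of 8 fits that left out a library, the one without cancer 4, with an adjusted p of 0.070 to 0.12 in the others, and not with quantile normalization (0.30, adjusted p = 0.39). The acid-sensitive gene Kcnk3 was at 20, 7, 11, 8 and 14 FPKM against 9, 8 and 11 and did not pass (difference 0.25, SE 0.32, adjusted p = 0.56), but passed with TPM (1.17, adjusted p = 0.042).

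Among the 3 two-pore genes that were lower, Kcnk6 (chromosome 7, 29221928 to 29232522), a relative of Kcnk1, was at 22, 13 and 17 FPKM in the controls and 2, 6, 2, 4 and 3 in the cancers (difference -2.11, SE 0.32, adjusted p = 0.0037). Kcnk5, an alkaline-activated channel of acid- and bicarbonate-moving epithelia, was at 13, 5 and 16 FPKM in the controls and 1, 3, 0, 2 and 2 in the cancers (difference -2.26, SE 0.51, adjusted p = 0.015). Without control 1 or 3 its adjusted p was 0.062 or 0.061. Kcnk10, a stretch- and lipid-gated relative of Kcnk2, was at 21, 11 and 10 FPKM in the controls and 0, 8, 1, 3 and 2 in the cancers (difference -2.28, SE 0.66, adjusted p = 0.032), and with TPM it did not pass (-1.76, adjusted p = 0.075). It passed in 3 of 8 fits that left out a library, and its adjusted p was 0.075 and 0.060 without cancer 3 and 5 and 0.12, 0.078 and 0.073 without control 1, 2 and 3. With TPM it was 0.075. Kcnk2 and Kcnk10, related leak channels, had opposite signs, as did Kcnk1 and Kcnk6, with no overlap between the groups in any of the 4 genes.

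Channels gated by calcium or sodium had 7 of 12 members tested and 3 higher. Kcnma1, the pore of the large-conductance (BK) channel that calcium and voltage open together, was at 6, 3, 5, 3 and 10 FPKM against 1, 1 and 0 (difference 1.90, SE 0.40, adjusted p = 0.011). Kcnmb2, a BK subunit that inactivates the channel, was at 8, 3, 16, 3 and 5 FPKM against 1, 1 and 0 (difference 2.10, SE 0.52, adjusted p = 0.019, and 0.053 and 0.077 without control 1 and 3). Kcnt1, a sodium-activated channel of neurons, was at 5, 3, 8, 0 and 3 FPKM and at 0 in the controls. Its difference of 1.95 (SE 0.63, adjusted p = 0.047) passed in 1 of 8 fits that left out a library, the one without cancer 4, the adjusted p being 0.076 to 0.12 in the others, and was not past the threshold with quantile normalization (adjusted p = 0.091). Kcnn4, the intermediate-conductance channel of secretory epithelia and lymphocytes, held 92.6% of this subfamily's summed FPKM in the controls, at 29, 25 and 33. In the cancers it ranged widely, at 2, 37, 4, 18 and 11, and did not pass (difference -1.50, SE 0.78, adjusted p = 0.16), but passed with array weights (-1.84, adjusted p = 0.017). The remaining Kcn genes, the antisense transcript Kcnq1ot1 and the regulator Kcnrg, were at 0 in all libraries.

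**Figure D4:**
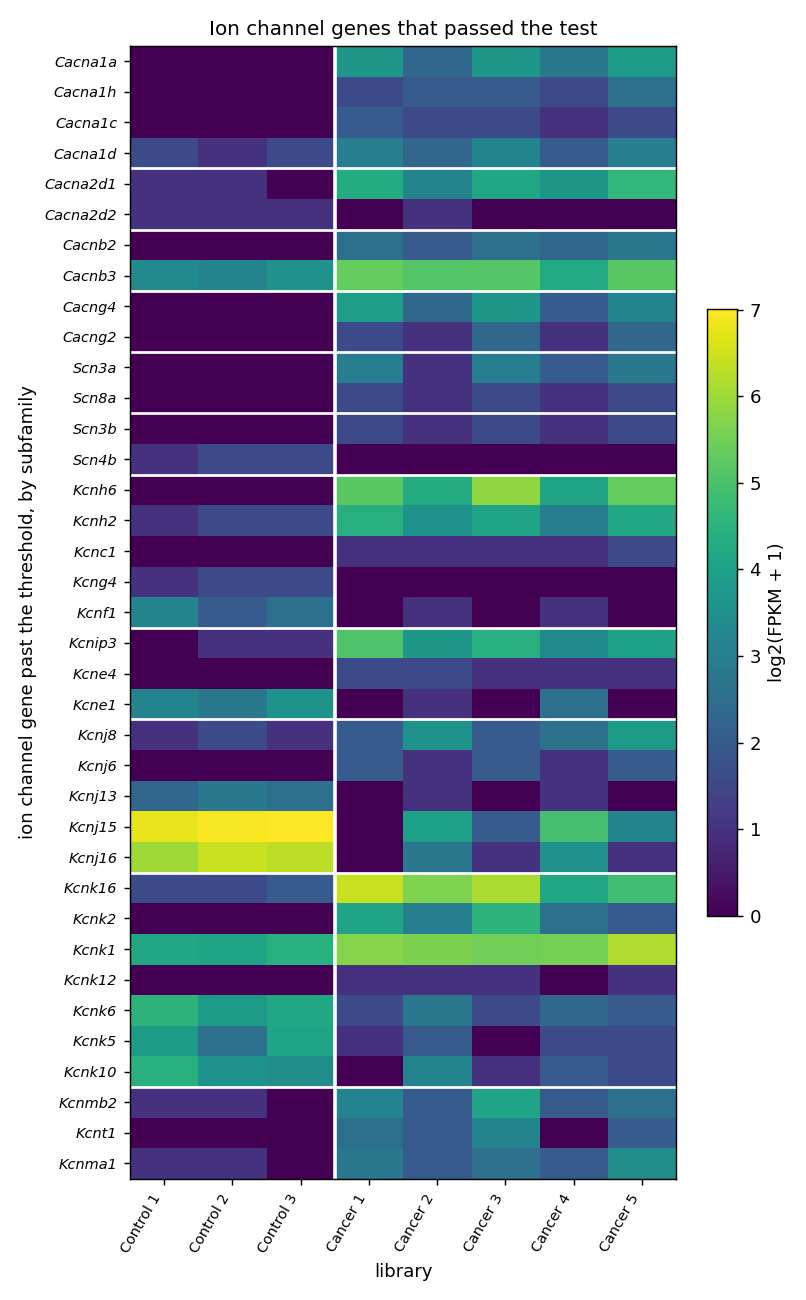
Level, as log2(FPKM + 1) (color), of 37 of the 41 channel genes past the threshold in each control and cancer library, grouped by subfamily (white lines). Most rows are at or near 0 in the controls and above it in the cancers, and 11 rows, among them Kcnj15 and Kcnj16, are brighter in the controls.

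Some channel genes sit side by side in the genome and differed in direction. Kcnk5 and Kcnk16 on chromosome 14 are 79.6 kb apart with 0 protein-coding genes between them, and Kcnk5 was lower while Kcnk16 was higher. Kcnj6 and Kcnj15 on chromosome 16, 260.0 kb apart with 0 protein-coding genes between them, were higher and lower. Kcnj16 and Kcnj2 on chromosome 11 are 38.2 kb apart, and Kcnj2, the inward rectifier of muscle and heart, was at 3, 2, 5, 3 and 3 FPKM against 3, 3 and 4 (difference -0.07, SE 0.23, adjusted p = 0.82), with the opposite sign without cancer 2 or control 3 and under TPM (0.73, adjusted p = 0.093). Scn3a and Scn2a1 are another pair of neighbours with 0 protein-coding genes between them, 53.2 kb apart.

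**Figure D5:**
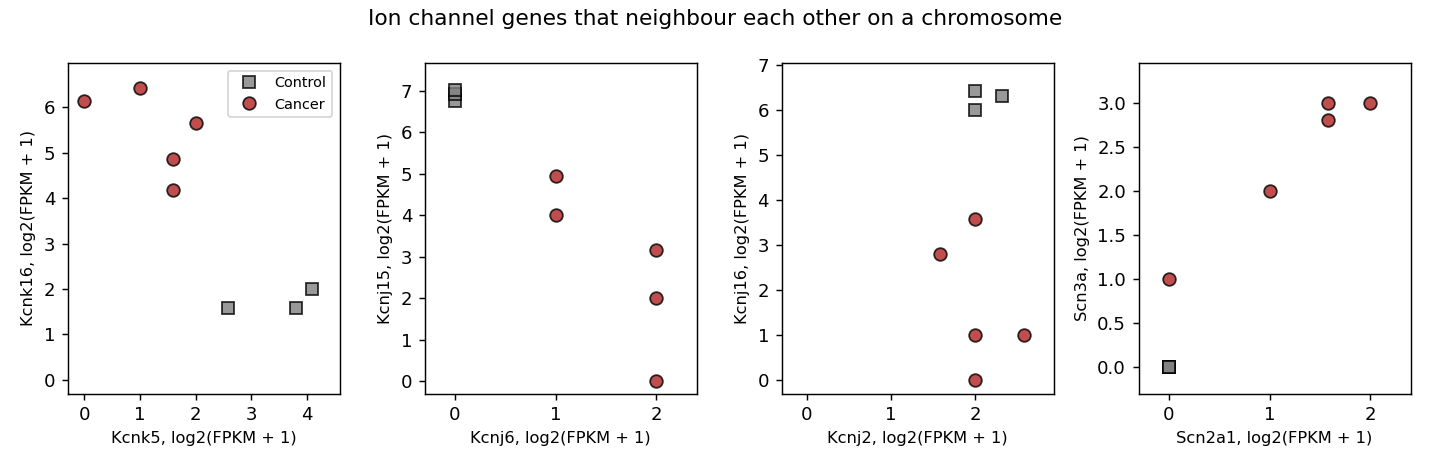
Levels of 4 pairs of neighbouring channel genes, as log2(FPKM + 1), in 3 control (squares) and 5 cancer (circles) libraries; points can coincide. Kcnk16 rises as Kcnk5 falls and Kcnj6 rises as Kcnj15 falls between controls and cancers, Kcnj16 falls while Kcnj2 stays between 2 and 5 FPKM, and Scn3a lies above Scn2a1 in every cancer.

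The promoters of the genes with the largest rises and the largest falls among those with an entry in RefSeq's promoter table (GRCm38.p6; 98 of the 133 channel genes and 29 of the 41 past the threshold) are given to show the sequence these levels start from. Each is the 250 bases before the transcript start of that table, 5′ to 3′ on the gene's strand. For Kcnh6 this start lies inside the gene, so that 104 bases of the window are within the gene span given above, and the other 3 windows end where the gene begins. Capitals mark matches on either strand to CAGCTG, an E-box that proneural factors are known to bind, and to CAGCACC and GGACAG, the left and right part of the element bound by the neuronal gene repressor REST. The windows lie at chr11:106007898-106008147 (Kcnh6, plus strand), chr14:20269270-20269519 (Kcnk16, minus strand), chr11:110967783-110968032 (Kcnj16, plus strand, 1 of 4 windows of this gene) and chr16:95257308-95257557 (Kcnj15, plus strand).
Kcnh6: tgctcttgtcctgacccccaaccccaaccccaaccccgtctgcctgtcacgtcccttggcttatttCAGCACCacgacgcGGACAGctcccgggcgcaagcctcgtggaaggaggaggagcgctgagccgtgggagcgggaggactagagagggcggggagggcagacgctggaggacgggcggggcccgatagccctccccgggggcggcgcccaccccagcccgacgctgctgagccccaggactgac
Kcnk16: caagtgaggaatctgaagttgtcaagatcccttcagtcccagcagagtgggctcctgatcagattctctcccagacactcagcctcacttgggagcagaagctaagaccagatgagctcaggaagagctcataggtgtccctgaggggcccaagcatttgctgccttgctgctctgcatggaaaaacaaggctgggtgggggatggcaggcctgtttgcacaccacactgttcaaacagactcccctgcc
Kcnj16: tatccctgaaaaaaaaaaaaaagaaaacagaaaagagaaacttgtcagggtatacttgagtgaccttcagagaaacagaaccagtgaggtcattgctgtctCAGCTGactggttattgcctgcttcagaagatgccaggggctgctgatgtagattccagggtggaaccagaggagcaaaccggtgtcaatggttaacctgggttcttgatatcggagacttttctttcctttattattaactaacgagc
Kcnj15: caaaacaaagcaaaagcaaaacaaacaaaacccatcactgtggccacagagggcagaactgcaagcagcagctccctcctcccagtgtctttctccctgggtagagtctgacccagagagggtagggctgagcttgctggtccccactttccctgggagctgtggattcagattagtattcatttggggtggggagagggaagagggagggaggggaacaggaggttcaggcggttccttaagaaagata

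Kcnh6 held CAGCACC 184 bases and GGACAG 170 bases before the start in the promoter table (80 and 66 bases before the gene span), 7 bases apart on 1 strand, and Kcnj16 held CAGCTG 149 bases before its start. None of the motifs was found in the windows of Kcnk16 and Kcnj15. CAGCTG was in 25% of the 132 windows of channel genes and in 13% of all 32851 windows, CAGCACC in 5.30% and 5.73%, and GGACAG in 21.2% and 18.7%. By gene, CAGCTG was found for 27 of the 98 channel genes with an entry, 6 of 20 higher and 3 of 9 lower ones among them. CAGCACC was found for 7 of 98, 2 of 20 and 0 of 9, and GGACAG for 25 of 98, 6 of 20 and 2 of 9. The left part followed by the right part within 12 bases on 1 strand was in 24 of all windows (0.0731%). Of these, 2 had the gap of 7 bases seen for Kcnh6, the only channel gene with such a pair. Whether REST binds a pair with this gap was not tested. Windows of channel genes were also richer in G and C, with a median of 58.2% against 52.4% for all windows, and 63.0% for genes that were higher and 51.2% for those that were lower. The part of base composition in these shares was not tested.

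Other genes of the same machinery, listed by role but with earlier results of these data known, were counted beside the channels. Of 46 such genes 34 were tested, 17 were higher and 1 was lower, where 16.2% of all genes tested were higher and 18.3% lower. Of the 15 at 0 in every control 12 were higher, and of the 19 with a control value 5 were higher. The median difference was 1.34, and 0.26 over those 19. The largest difference was that of Nfasc, an adhesion protein of the axon initial segment. It was at 17, 6, 18, 12 and 36 FPKM and 0 in the controls (difference 4.03, SE 0.47, adjusted p = 0.0016). Cabp1, a calcium sensor that binds the pore of Cacna1a and L-type channels, was at 21, 10, 20, 8 and 14 FPKM and at 0 in the controls (difference 3.88, SE 0.31, adjusted p = 0.00065). Of the 4 release site proteins that hold calcium channels next to vesicles, 3 were higher, and Rims1 did not pass, at 0, 2, 0, 0 and 0 FPKM against 1 in each control (difference -0.68, adjusted p = 0.19). Rimbp2 was at 18, 6, 18, 5 and 20 FPKM (difference 3.66, SE 0.47, adjusted p = 0.0023) and Unc13a, a vesicle priming factor, at 9, 3, 10, 6 and 11 (difference 3.03, SE 0.36, adjusted p = 0.0016), both at 0 in the controls. Dpp6, a partner of Kv4 channels, was at 5, 7, 15, 8 and 18 FPKM (difference 3.40, SE 0.38, adjusted p = 0.0014), although no Kv4 pore gene passed the threshold, and Fgf12, which binds the tail of sodium channels, at 13, 5, 9, 5 and 5 (difference 2.98, SE 0.31, adjusted p = 0.0011), again with 0 in each control. The gene that was lower was Ank3, the ankyrin that anchors sodium channels and is also widely expressed in epithelia, at 6, 5, 5, 8 and 4 FPKM against 15, 19 and 17 (difference -1.47, SE 0.20, adjusted p = 0.0027), and with TPM it did not pass (-0.61, adjusted p = 0.059). The epithelial sodium channel genes Scnn1a, Scnn1b and Scnn1g did not pass, the last 2 of them being lower with quantile normalization (-1.57, adjusted p = 0.031, and -1.56, adjusted p = 0.040).

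The scaling of the libraries bears on how many channel genes count as higher. With TPM 38 were higher and 9 lower, where 50% of all genes tested were higher and 3.68% lower (53.7% in either direction), and with quantile normalization 24 were higher and 12 lower, where all genes gave 13.2% each way. Every one of the 41 channel genes past the threshold kept its sign under both scalings. Without control 1, 2 or 3 the count of channel genes was 27, 30 or 30, while the count over all genes tested went from 4948 to 2490, 2643 or 2815. Without any 1 cancer it was 37 to 43 for channel genes and 3437 to 5252 for all genes. Of the 41 genes, 26 were past the threshold in all 8 fits that left out 1 library, 7 of the calcium, 3 of the sodium and 16 of the potassium family.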

How the data were processed

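PolyA-selected RNA of 5 SCJ cancers and 3 control SCJ samples was sequenced. The authors trimmed reads with cutadapt 1.8, the submitters' processing notes name TopHat2 2.0.13 and mm10, and FPKM were made with cuffquant and Cuffnorm 2.2.1. Deposited levels were FPKM rounded by the authors to whole numbers (100.0% were whole) and were treated as a score, not as read counts. Depth is unknown, so no counting interval is given and a 0 means listed at 0. The normalization option of Cuffnorm is not given in the sources used here.

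The filter (at least 1 FPKM in 3 or more samples) kept 14357 genes for limma 3.58.1 in R 4.3.3, run on log2(FPKM + 1) with a trended prior variance. P-values were adjusted by Benjamini-Hochberg over all of them, with a threshold of 0.05. Members and gene lists were chosen with earlier results of these data known, and families were only counted, with no test of a list. In each subfamily up to 5 genes past the threshold with the largest difference and the 2 with the highest mean FPKM were named, with up to 6 partner genes. Cacna1b, Kcnc1, Kcng4, Kcnk12, Kcnk3, Kcnj2, Kcnj11, Ank3, Rims1, Abcc8 and the Scnn1 genes fall outside that rule and were named after their values were seen. Alternatives were a pseudocount of 0.1, no filter, a mean FPKM of at least 5, TPM, quantile normalization, a prior variance without trend, weights per library, the replicate number as a block and leaving out each sample. The values of some named genes are not reported here.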

Additional observations from a re-analysis of the deposited data

Results flagged for a closer look

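Of 36 channel genes examined for 1 cancer apart from the other 4 (a gap to the nearest cancer of over 0.71 of the whole range, Dixon's criterion), 4 were found, where chance gives about 1.8 (1 in 20). Kcne3 in cancer 2 (96 FPKM, next 29) had a gap of 0.713 of the range and Kcne1 in cancer 4 (5 FPKM, next 1) of 0.80. Cacna2d2 in cancer 2, at 1 FPKM with the other cancers at 0, had a gap of 1.0, which is a single step of the rounded scale. Cacnb3 in cancer 4 was apart on the low side (18 FPKM, next 34), with a gap of 0.727.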

How the results depend on the processing

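None of the 40 tested channel genes named by the rule changed sign under any setting; Kcnj2 and Trp53, named outside it and close to 0, changed sign in several, among them TPM and fits that left out 1 library. All genes tested gave 4948 calls (2326 higher, 2622 lower), 7704 with TPM (7176 higher, 528 lower), 8148 with array weights, 1534 with a replicate block and 2490 to 5252 when 1 library was left out. With a mean FPKM of at least 5, which tests fewer genes, 4 calcium (all 4 tested), 1 sodium (the only one tested) and 12 of 14 potassium genes passed. So did 17 of the named genes, against 37, and 9 partner genes, against 18. Of all genes tested at this setting 38.5% passed, 13.6% higher and 24.9% lower. Leaving out 1 library gave 8 to 10 calcium, 3 to 6 sodium and 16 to 28 potassium calls, 26 to 36 among the named genes and 16 to 19 among the partners, the lowest each time without control 1. Array weights gave 28 partner genes. The cause of these shifts was not tested. Same-numbered samples did not deviate together (r = -0.02, -0.19 and -0.10 for numbers 1, 2 and 3). With 3 controls, whose deviations are taken from their own mean, such correlations cannot exclude a pairing. With a replicate block 3 sodium, 16 potassium and 20 named genes passed. Among the named genes the calls that changed numbered 4 of 40 with TPM, 3 with array weights, 2 without a filter, 5 with a pseudocount of 0.1 (among them Kcnj15, Kcnk5 and Kcnk10, adjusted p = 0.063, 0.059 and 0.089 by limma) and 3 with quantile normalization. Rounding to whole FPKM leaves few steps for genes at 0 to 2 FPKM, and depth is unknown.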
